A study of Mus musculus with 11 samples.

Results

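Tfeb, Tfe3, Mitf, Flcn, Rragd, Map1lc3b, Gabarapl1, Wipi1, Becn1 and Uvrag are 3 transcription factors of the TFEB family, 2 of their regulators and 5 genes of the autophagosome. These 10 of the 25121 genes in the deposited table were chosen by symbol for their roles, with no threshold on a measured value. All 10 passed the filter on low counts, which left 15132 genes for testing.

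RNA was sequenced from mouse bone marrow-derived macrophages that had shared a Transwell chamber with primary renal proximal tubular epithelial cells, the macrophages on the insert and the epithelial cells below it. Every culture received TGF-β1, a profibrotic cytokine, at 5 ng/mL for 72 h. The 5 hemin libraries (TGF-β1 + hemin, replicates 2 to 6) also received hemin, an oxidized form of heme, at 10 µM, and the 6 TGF-β1 libraries (replicates 1 to 6) received TGF-β1 alone. No culture without TGF-β1 was analysed here. Separate mice or cultures behind the libraries of a group are not stated in the labels, so the p-values measure only the spread between these libraries.

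TFEB, TFE3 and MITF are basic helix-loop-helix leucine zipper factors that bind E-box sequences in the promoters of lysosomal and autophagy genes, known together as the CLEAR network. When amino acids are plentiful, the kinase complex mTORC1 phosphorylates them at the lysosome and holds them in the cytoplasm. Rag GTPases carry them there, and folliculin, the product of Flcn, acts on RagC and RagD. In autophagy a membrane sac coated with lipid-linked proteins of the ATG8 family closes around cargo and fuses with lysosomes, a route that macrophages use to clear organelles, iron-loaded ferritin and engulfed material.

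Total counts ran between 66.7 M and 96.6 M in the hemin libraries, with replicates 5 and 6 the deepest, and between 65.5 M and 71.5 M in the TGF-β1 libraries. Hmox1, which encodes the heme-degrading enzyme heme oxygenase-1, was higher in every hemin library (log2 fold change 2.29, SE 0.05), as was Slc40a1, the iron exporter ferroportin (2.23, SE 0.06), in the direction that checks the labels. All 9 macrophage markers were expressed. Their summed level ran between 4833 and 5650 FPKM (fragments per kilobase of exon, scaled to library size) in the hemin libraries and between 3990 and 5954 FPKM in the TGF-β1 libraries. Of the 9, 3 rose with hemin (Adgre1, Cd68 and Cd14), while 8.43% of all tested genes rose and 5.75% fell. Markers of tubular epithelium summed to between 4.17 and 15.2 FPKM in the hemin libraries and between 7.76 and 15.9 FPKM in the TGF-β1 libraries. Of its 12 measured genes, 6 averaged under 0.1 FPKM, among them the proximal tubule receptors Lrp2 and Cubn, and 1 of the 8 tested, the cadherin gene Cdh1, fell (log2 fold change -1.36, SE 0.13). The other 7 did not pass, and the median log2 fold change of the 8 was 0.53. Of these 7, 1 was higher at an unadjusted p under 0.05, the tubular injury gene Havcr1 (1.03, SE 0.44, edgeR adjusted p = 0.147), named after its value was seen. Osteoclast markers, a lineage in which MITF and TFE3 act, summed to between 65.9 and 71.4 FPKM with hemin and between 54.6 and 74.2 FPKM with TGF-β1. Ctsk, the osteoclast protease cathepsin K, rose (1.09, SE 0.13), Mmp9 fell (-0.98, SE 0.31), and Calcr, Ocstamp and Oscar averaged under 0.1 FPKM. Mast cell markers stayed at or under 0.0410 FPKM in sum with hemin and 0.0611 FPKM with TGF-β1, neutrophil markers ran between 5.63 and 7.58 FPKM with hemin and between 7.08 and 8.27 FPKM with TGF-β1, and dendritic cell markers reached at most 0.203 FPKM with hemin and 0.290 FPKM with TGF-β1. Fibroblast markers ran between 30.3 and 54.2 FPKM with hemin and between 38.9 and 94.4 FPKM with TGF-β1, with 0 of 6 called by edgeR (2 lower at an unadjusted p under 0.05, 0 by DESeq2). The most abundant gene of 4 lists had log2 fold changes that did not pass: 0.32 for the macrophage gene Lyz2 (edgeR adjusted p = 0.0530), -0.03 for the fibroblast gene Acta2 (0.951), 0.10 for the osteoclast gene Acp5 (0.307) and -0.21 for the neutrophil gene S100a8 (0.350). Whether these other cell types had a part in the results below was not tested, and in bulk RNA fewer cells of a type and less RNA per cell cannot be told apart.

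Hemin was accompanied by small rises of 3 of the 10 genes. Gabarapl1, a member of the ATG8 family, rose 1.31-fold, Tfeb 1.22-fold and Mitf 1.21-fold (edgeR's quasi-likelihood test, adjusted p under 0.05 over all tested genes). The other 7 did not pass the test, and for Map1lc3b, Flcn and Becn1 the estimated change was within 1% of no change. No member was called lower by edgeR or by DESeq2, with 1, Wipi1, lower at an unadjusted p under 0.05. Over all tested genes the same fit called 14.2% in either direction, 8.43% higher and 5.75% lower. The median log2 fold change of the 10 genes was 0.05, beside -0.00 over all tested genes.

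The direction of these counts depended on how libraries were scaled. TMM factors, which correct library totals for the make-up of each library, ran between 0.924 and 0.982 in the hemin libraries and between 0.994 and 1.06 in the TGF-β1 libraries. Scaled by library totals alone, edgeR called 21.3% of all genes, with 734 higher and 2487 lower, and the median of all genes stood at -0.12. Of the 10 genes, 1 was then higher (Gabarapl1) and 2 were lower (Wipi1 and Uvrag). The deposited FPKM values gave a like picture in limma, which called 27.3% of 10499 genes, 685 higher and 2186 lower, with a median of -0.09; there 2 members were higher (Gabarapl1 and Tfeb) and the same 2 lower. DESeq2 called 18.1% of its tested genes and the same number of members as edgeR, 3 higher and 0 lower.

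**Figure D1:**
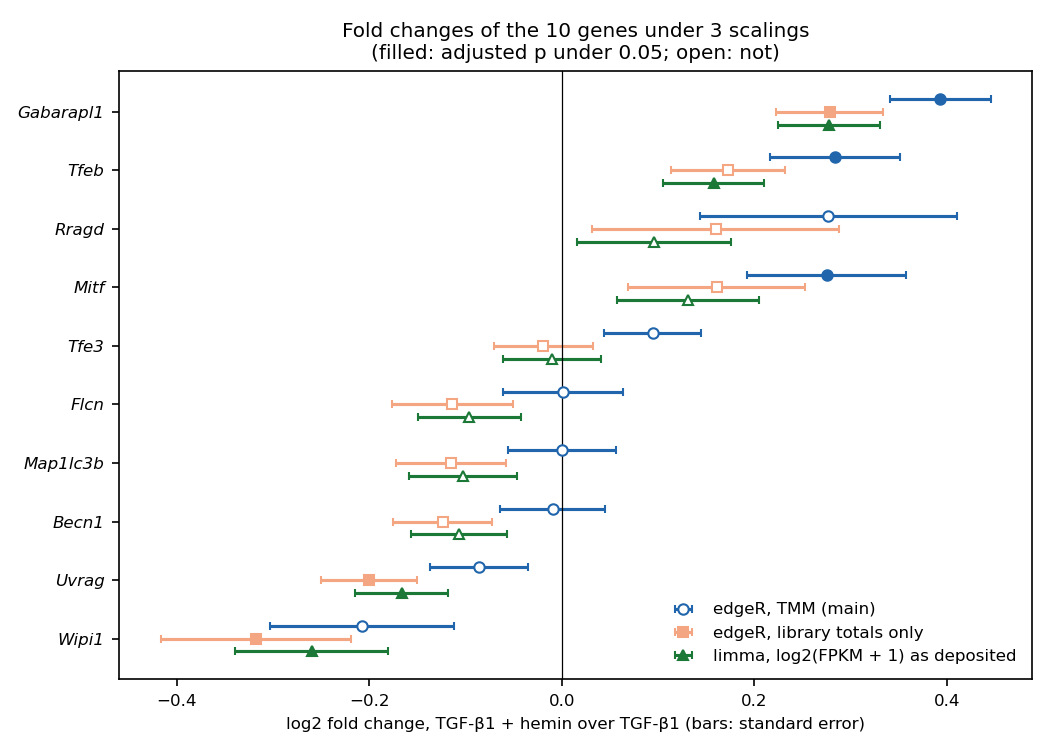
Log2 fold change of each of the 10 genes (x axis, TGF-β1 + hemin over TGF-β1, bars: standard error) in edgeR with TMM factors, in edgeR with library totals only and in limma on the deposited FPKM values, filled where adjusted p was under 0.05. Only Gabarapl1 is filled under all 3 scalings, and Flcn, Map1lc3b and Becn1 move between about 0 and about -0.12 with the scaling.

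The E-box bound by the TFEB family was looked for in RefSeq promoters of build GRCm38.p6, each 250 bases before to 50 bases after a gene's start. The search on both strands used CACGTG, the longer TCACGTG that holds it and is typical of CLEAR genes, TCATGTG (the M-box of MITF) and TGACNNNGC, the core of the antioxidant response element that NRF2 and BACH1 bind. Of the 10 genes, 9 had promoter entries, 14 in all. CACGTG was found in 0 of the 9, against 8.09% of all genes with an entry; TCACGTG in 0 of 9, against 4.29%; TCATGTG in 0 of 9, against 4.31%; and TGACNNNGC in 2 of 9 (Mitf and Map1lc3b), against 14.0%. By contrast, 12 of 22 lysosomal CLEAR genes (54.5%) held TCACGTG, a list drawn from known TFEB targets. The upstream windows below, written 5′ to 3′ on the gene's strand and ending 1 base before the start or 60 bases after the last match, show this difference. Gla (α-galactosidase A) at chrX:134601134-134601255, minus strand, Mcoln1 (the lysosomal calcium channel mucolipin-1) at chr8:3500388-3500518, plus strand, and Ctsd (cathepsin D) at chr7:142387860-142388077, minus strand, each hold CACGTG at 2 places, in capitals. Gabarapl1 at chr6:129532942-129533191, plus strand, the member with the largest rise, holds none of the 4 motifs. One of the 3 Mitf promoters, at chr6:97929567-97929816, plus strand, holds TGACNNNGC once on each strand, in capitals, the first match reading as GCACAGTCA on the strand shown.
Gla: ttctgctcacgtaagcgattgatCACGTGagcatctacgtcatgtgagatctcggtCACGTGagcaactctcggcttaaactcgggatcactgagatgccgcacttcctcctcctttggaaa
Mcoln1: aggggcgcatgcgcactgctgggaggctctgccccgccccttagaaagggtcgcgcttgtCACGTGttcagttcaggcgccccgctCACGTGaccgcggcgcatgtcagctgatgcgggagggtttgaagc
Ctsd: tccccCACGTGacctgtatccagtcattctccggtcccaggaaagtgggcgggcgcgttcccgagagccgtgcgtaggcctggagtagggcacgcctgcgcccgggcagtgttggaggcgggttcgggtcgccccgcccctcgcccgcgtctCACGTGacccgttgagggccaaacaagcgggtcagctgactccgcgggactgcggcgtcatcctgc
Gabarapl1: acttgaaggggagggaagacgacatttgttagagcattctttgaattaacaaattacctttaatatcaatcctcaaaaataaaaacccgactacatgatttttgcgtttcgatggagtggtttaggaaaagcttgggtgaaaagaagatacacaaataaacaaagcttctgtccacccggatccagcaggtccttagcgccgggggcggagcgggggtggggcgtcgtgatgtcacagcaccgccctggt
Mitf: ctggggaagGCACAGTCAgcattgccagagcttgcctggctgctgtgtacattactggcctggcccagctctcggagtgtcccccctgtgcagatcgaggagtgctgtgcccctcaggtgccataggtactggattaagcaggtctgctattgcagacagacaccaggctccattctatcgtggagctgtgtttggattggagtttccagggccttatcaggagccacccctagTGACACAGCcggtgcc
A match in these letters is no evidence of binding, and a missing match says only that the letters are not in this window.

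The factor Tfeb, the master regulator of lysosomal gene expression, lies on chromosome 17 (48047955 to 48103344, plus strand, build GRCm39 as in the deposited table, ENSMUSG00000023990). It had 43.5, 46.3, 48.4, 44.4 and 45.0 CPM (counts scaled to library size with TMM factors) in hemin replicates 2 to 6, against a lowest value of 33.6, a median of 36.6 and a highest of 43.6 CPM in the TGF-β1 libraries. The groups overlapped by 1 library on each side, since hemin replicate 2 lay just under TGF-β1 replicate 2, and the other 4 hemin libraries lay above all 6 TGF-β1 libraries. Tfeb averaged 45.5 ± 1.9 CPM with hemin and 37.4 ± 3.84 CPM with TGF-β1 (SD, n = 5 and 6), a log2 fold change of 0.28 (SE 0.07, edgeR adjusted p = 0.00849). The rise kept its call in all 11 fits that left out 1 library and lost it with library totals only (log2 fold change 0.17, adjusted p = 0.0504) and in limma without a filter on low values (0.16, adjusted p = 0.0662).

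Mitf, whose product is the melanocyte factor that also acts in osteoclasts, mast cells and macrophages, lies on chromosome 6 (97784013 to 97995668, plus strand). It had 24.0, 28.2, 25.6, 23.0 and 26.6 CPM in hemin replicates 2 to 6, and 18.2, 21.05 and 23.8 CPM as the lowest, median and highest of the TGF-β1 libraries. Again 4 hemin libraries lay above all TGF-β1 libraries, hemin replicate 2 by a small margin, and replicate 5 lay within their range. The mean was 25.5 ± 2.09 CPM with hemin and 21.04 ± 2.17 CPM with TGF-β1, and the log2 fold change of 0.28 (SE 0.08, edgeR adjusted p = 0.0359) was close to that of Tfeb. This call was fragile. It was lost without TGF-β1 replicate 1, 2, 3 or 4 and without hemin replicate 3, 4 or 6, with adjusted p between 0.0214 and 0.0872 over the 11 fits that left out 1 library, and was kept in 8 of 22 alternatives in all, with adjusted p between 0.0156 and 0.365.

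Tfe3, which shares many targets with TFEB, was the most highly expressed of the 3 factors. It lies on chromosome X (7628799 to 7641441, plus strand). Its 5 hemin libraries held 139, 136, 143, 145 and 140 CPM, and the TGF-β1 libraries 118, 130 and 146 CPM as lowest, median and highest. All 5 hemin libraries lay within the TGF-β1 range, in its upper part. The means of 140 ± 3.34 CPM with hemin and 131 ± 9.56 CPM with TGF-β1 gave a log2 fold change of 0.09 (SE 0.05, edgeR adjusted p = 0.259, 95% interval between -0.87% and 15% in level), and it stood at -0.02 with library totals only. Tfec, the remaining gene of the family and expressed mainly in the macrophage lineage, averaged 67.7 ± 3.02 CPM with hemin and 68.7 ± 1.93 CPM with TGF-β1 (log2 fold change -0.02, SE 0.04, edgeR adjusted p = 0.820). It was called lower with library totals only (-0.14, adjusted p = 0.0362) and in limma on log2(FPKM + 1) (-0.12, adjusted p = 0.0496) and log2(FPKM + 0.1) (-0.13, adjusted p = 0.0487).

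**Figure D2:**
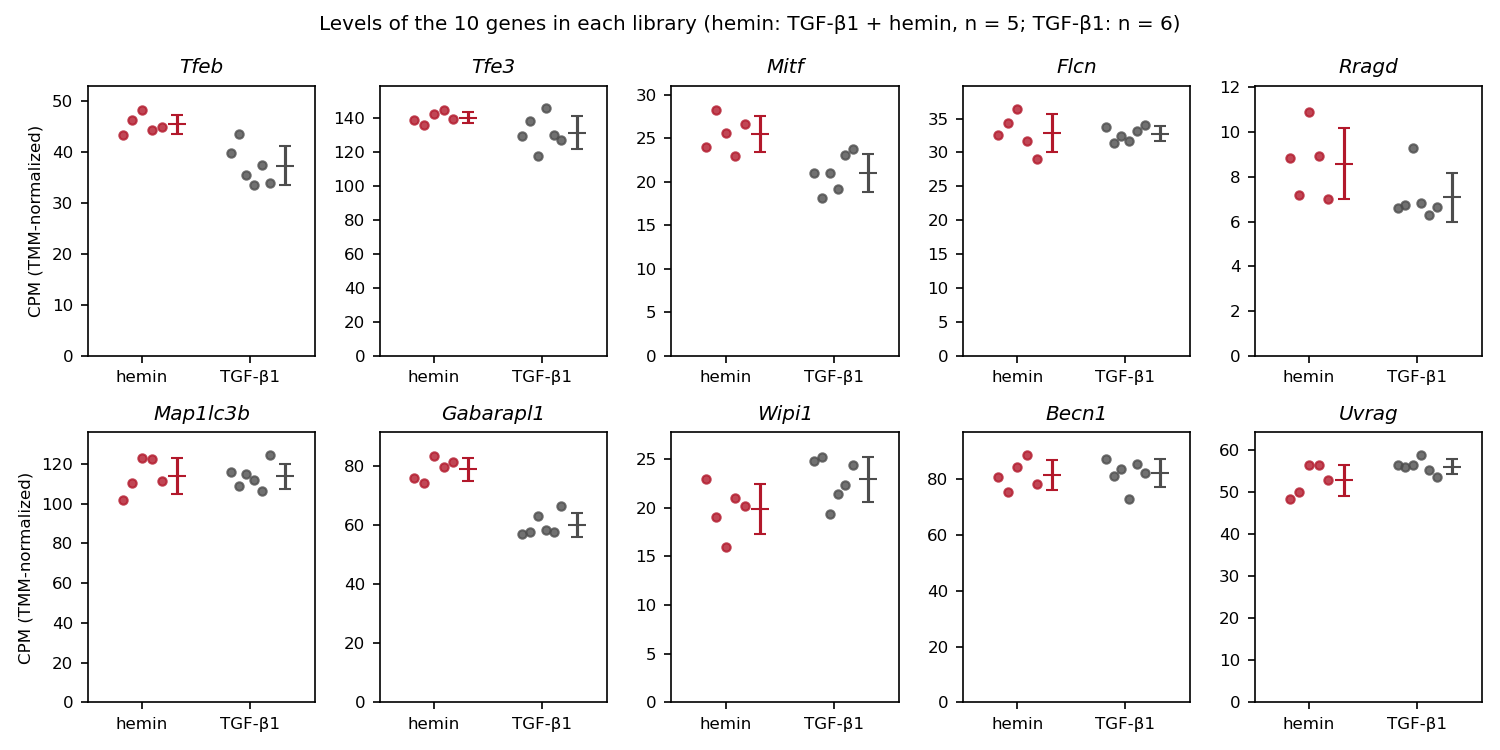
CPM (y axis, TMM-scaled, from 0) of the 10 genes in each library, hemin left and TGF-β1 right in each panel, with mean and SD beside the points. Gabarapl1 is the only panel in which the groups do not overlap, with all hemin libraries at 74.2 CPM or more and all TGF-β1 libraries at 66.7 CPM or less. Of all tested genes, 10.2% were apart in either direction, so a single gene among 10 is near that share.

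Among the regulators, Flcn, which encodes folliculin, lies on chromosome 11 (59682234 to 59700842, minus strand). Hemin libraries held 32.6, 34.3, 36.5, 31.7 and 29.0 CPM, spread on both sides of the TGF-β1 libraries, whose lowest, median and highest were 31.5, 32.8 and 34.0 CPM. The groups averaged 32.8 ± 2.79 CPM with hemin and 32.8 ± 1.06 CPM with TGF-β1 (log2 fold change 0.00, SE 0.06, edgeR adjusted p = 0.995), with a 95% interval between -8.70% and 9.66%. Rragd encodes RagD, the Rag GTPase through which TFEB feeds back on mTORC1, and it was the lowest of the 10 genes. It lies on chromosome 4 (32983037 to 33022180, plus strand). The hemin libraries had 8.84, 7.17, 10.9, 8.94 and 7.01 CPM, and the TGF-β1 libraries 6.30, 6.70 and 9.30 CPM as lowest, median and highest. Each hemin library exceeded 5 of the 6 TGF-β1 libraries, and only hemin replicate 4 exceeded TGF-β1 replicate 3, which stood apart from its group. At 8.58 ± 1.59 CPM with hemin and 7.08 ± 1.1 CPM with TGF-β1 the log2 fold change was 0.28 (SE 0.13, edgeR adjusted p = 0.207), and 0.37 without TGF-β1 replicate 3 (adjusted p = 0.0650).

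The ATG8 genes encode the small ubiquitin-like proteins that are joined to lipid on the autophagosome membrane. Gabarapl1, one of the GABARAP branch, lies on chromosome 6 (129510123 to 129519309, plus strand). Its levels were 75.9, 74.2, 83.3, 79.9 and 81.5 CPM in hemin replicates 2 to 6, and 57.2, 58.0 and 66.7 CPM as the lowest, median and highest of the TGF-β1 libraries. Every hemin library lay above every TGF-β1 library, which was the case for 6.29% of all tested genes, while 3.93% lay wholly lower and 10.2% were apart in either direction. The means of 79.0 ± 3.81 CPM with hemin and 60.1 ± 3.93 CPM with TGF-β1 gave a log2 fold change of 0.39 (SE 0.05, edgeR adjusted p = 6.54e-05). This call held in all 23 alternatives, with a log2 fold change between 0.28 and 0.43 and adjusted p of at most 0.00653.

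Map1lc3b, which encodes LC3B, the protein most used to mark autophagosomes, had 102, 110, 123, 122 and 112 CPM in hemin replicates 2 to 6. The TGF-β1 libraries had 107, 113 and 125 CPM as lowest, median and highest, so the groups overlapped almost fully. It lies on chromosome 8 (122317100 to 122325499, plus strand). Both groups averaged 114 CPM, with an SD of 9.00 with hemin and 6.37 with TGF-β1, and the change in level was bounded by a 95% interval between -7.92% and 8.62% (log2 fold change 0.00, SE 0.06, edgeR adjusted p = 0.999). It shares 58 bases with Zcchc14 on the opposite strand, whose count was 8.93% of that of Map1lc3b, so a share of its reads is uncertain where the counting did not use strand. Of the other ATG8 genes, Map1lc3a rose to 17.9 ± 2.13 CPM with hemin, against 14.3 ± 1.2 CPM with TGF-β1 (log2 fold change 0.33, SE 0.09, edgeR adjusted p = 0.0210), a call lost in 6 of 23 alternatives. These were library totals only (0.22, adjusted p = 0.0724), the replicate block (adjusted p = 0.0686), limma with no filter (adjusted p = 0.0731), and edgeR without hemin replicate 4 (adjusted p = 0.0736), without hemin replicate 5 (adjusted p = 0.0634) and without hemin replicates 5 and 6 together (adjusted p = 0.0683). Gabarap, the most abundant, had a log2 fold change of 0.10 (SE 0.06, adjusted p = 0.314) and Gabarapl2 of 0.16 (SE 0.08, adjusted p = 0.190).

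Wipi1 encodes a protein that binds the lipid PI3P on the growing autophagosome and was the member with the lowest fold change. It lies on chromosome 11 (109464157 to 109502793, minus strand). Hemin libraries had 23.0, 19.1, 16.0, 20.98 and 20.2 CPM, and the TGF-β1 libraries 19.3, 23.4 and 25.2 CPM as lowest, median and highest. The groups overlapped, with hemin replicates 3 and 4 below all TGF-β1 libraries. Means of 19.9 ± 2.58 CPM with hemin and 22.9 ± 2.29 CPM with TGF-β1 gave a log2 fold change of -0.21 (SE 0.10, edgeR adjusted p = 0.183). With library totals only, where the median of all genes was -0.12, it was called lower (-0.32, adjusted p = 0.0327).

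Becn1 (Beclin 1) and Uvrag encode subunits of the class III PI3-kinase complexes that make PI3P, Uvrag in the form that acts on endosomes and on autophagosome maturation. Becn1, on chromosome 11 (101176778 to 101193112, minus strand), had between 75.3 and 88.7 CPM in the hemin libraries and between 72.8 and 87.1 CPM in the TGF-β1 libraries, and a log2 fold change of -0.01 (SE 0.05, edgeR adjusted p = 0.949). Uvrag lies on chromosome 7 (98534228 to 98790348, minus strand) and had 48.3, 50.1, 56.3, 56.5 and 52.7 CPM in hemin replicates 2 to 6, against 53.4, 56.1 and 58.8 CPM as lowest, median and highest of the TGF-β1 libraries. In 3 hemin libraries, replicates 2, 3 and 6, it lay below all TGF-β1 libraries. Uvrag averaged 52.8 ± 3.66 CPM with hemin and 56.0 ± 1.78 CPM with TGF-β1 (log2 fold change -0.09, SE 0.05, edgeR adjusted p = 0.324), and it was called lower with library totals only (-0.20, adjusted p = 0.00973).

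Ratios between members within a library do not depend on library scaling, and 6 pairs were compared by an exact 2-sided permutation test of the group labels (462 arrangements of 5 and 6), with Benjamini-Hochberg adjustment over the 6. The ratio of Gabarapl1 to Map1lc3b counts was 0.747, 0.674, 0.677, 0.653 and 0.730 in the hemin libraries. In the TGF-β1 libraries it ran between 0.493 and 0.551. The 2 groups did not overlap, and the ratio was 1.32-fold higher with hemin (log2 difference 0.40, exact permutation p = 0.00433, the smallest possible with 5 and 6 libraries, adjusted p = 0.0260). The ATG8 genes Gabarapl1 and Map1lc3b thus differed in their change under hemin whichever scaling was used. Without any 1 hemin library the difference stayed between 0.37 and 0.42 and the groups did not overlap. The exact permutation adjusted p was 0.0571 in each of these 5 comparisons. With 1 hemin library fewer, that is the smallest value a single pair can reach after adjustment over the 6. The loss of the call there was thus fixed by the number of libraries.

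The ratio of Tfe3 to Tfeb counts averaged 1.62 ± 0.07 on the log2 scale with hemin and 1.82 ± 0.17 with TGF-β1, a difference of -0.19 that did not pass after adjustment (exact permutation p = 0.0216, adjusted p = 0.0649). It passed without TGF-β1 replicate 2 (-0.22, adjusted p = 0.0476). Mitf to Tfeb differed by -0.01 (exact permutation, adjusted p = 0.918), and Mitf to Tfe3 by 0.18 (adjusted p = 0.286). Rragd to Flcn differed by 0.27 (exact permutation, adjusted p = 0.139) and Uvrag to Becn1 by -0.08 (adjusted p = 0.317).

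**Figure D3:**
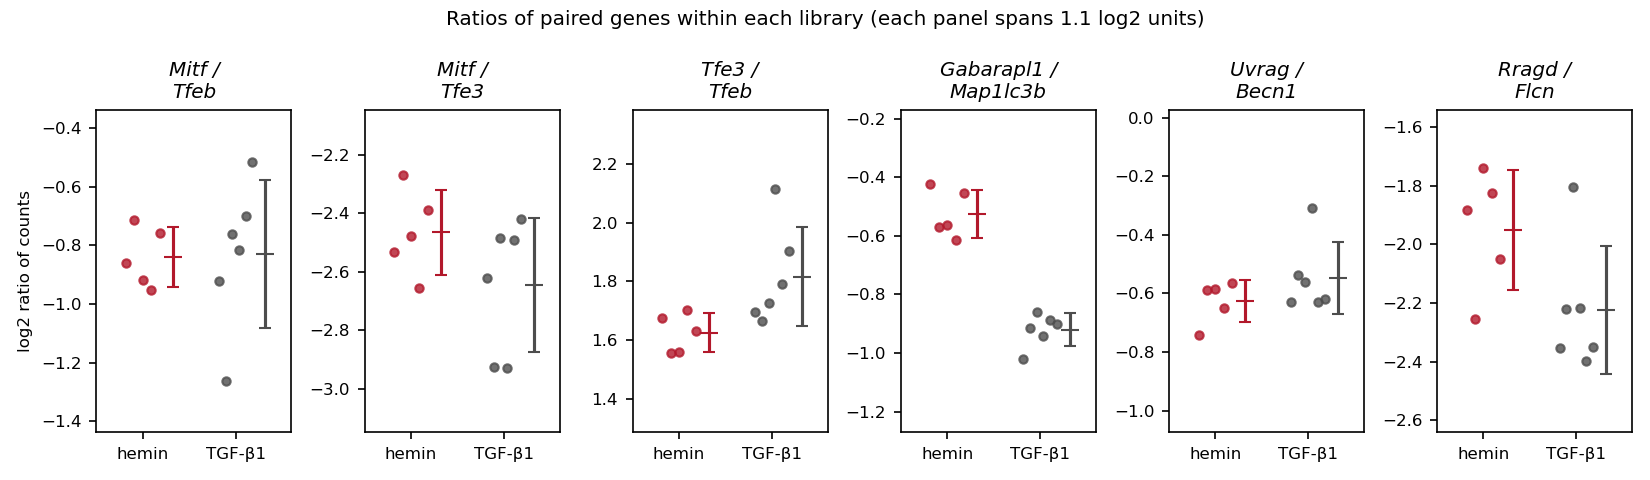
Log2 ratio of the counts of 2 genes within each library (y axis, each panel spanning 1.1 log2 units) for the 6 pairs, hemin left and TGF-β1 right, with mean and SD. Gabarapl1 over Map1lc3b is the pair whose groups do not overlap; single TGF-β1 libraries lie apart in Uvrag over Becn1 (replicate 4) and Rragd over Flcn (replicate 3).

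Levels of different genes can be compared only per length, and the order of the 10 genes depended on which length was used. The lengths implied by the deposited counts, FPKM values and total counts followed the union of all annotated exons. In 97.1% of 11595 genes, they were within 2% of 1.07 times the union in GENCODE M21. A factor common to all genes cannot be told apart here from another library total behind the FPKM values. For Map1lc3b that union spans 7517 bases, against 2633 bases in its longest coding transcript, while for Gabarapl1 the lengths are 2013 and 1820 bases. In FPKM, Gabarapl1 came first in both groups, at 35.1 ± 1.37 FPKM with hemin and 28.8 ± 2.27 FPKM with TGF-β1, well above Map1lc3b at 13.5 ± 0.921 FPKM with hemin and 14.6 ± 1.00 FPKM with TGF-β1. Tfe3 stood at 13.5 ± 0.229 FPKM with hemin and 13.7 ± 1.09 FPKM with TGF-β1 and did not differ from Map1lc3b beyond their spread in either group. Becn1 came next at 10.3 ± 0.533 FPKM with hemin and 11.2 ± 0.667 FPKM with TGF-β1. Tfeb and Flcn overlapped in both groups, Tfeb at 7.18 ± 0.264 FPKM with hemin and 6.34 ± 0.489 FPKM with TGF-β1, Flcn at 6.79 ± 0.509 FPKM with hemin and 7.31 ± 0.362 FPKM with TGF-β1, and Tfeb also overlapped Uvrag with TGF-β1. Uvrag, Wipi1 and Mitf filled the lower places, and Rragd was last at 1.48 ± 0.244 FPKM with hemin and 1.32 ± 0.204 FPKM with TGF-β1.

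On CPM per kilobase of the longest coding transcript, the top 3 drew level. Gabarapl1 stood at 43.4 ± 2.09 with hemin and 33.0 ± 2.16 with TGF-β1, Map1lc3b at 43.2 ± 3.42 with hemin and 43.2 ± 2.42 with TGF-β1, and Tfe3 at 41.4 ± 0.985 with hemin and 38.8 ± 2.82 with TGF-β1. With hemin neither Gabarapl1 and Map1lc3b nor Map1lc3b and Tfe3 differed beyond their spread, whereas with TGF-β1 Gabarapl1 came after both, its range overlapping that of Tfe3. Tfeb and Becn1 formed the next pair on this scale, Tfeb at 19.4 ± 0.810 with hemin and 16.0 ± 1.64 with TGF-β1, Becn1 at 18.7 ± 1.21 with hemin and 18.8 ± 1.14 with TGF-β1.

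Within the TFEB family, Tfe3 held the largest share of the summed FPKM, 38.5% ± 0.956 with hemin and 38.9% ± 1.83 with TGF-β1. Tfec came second at 30.7% ± 0.811 with hemin and 33.7% ± 1.31 with TGF-β1, its shares not overlapping between groups (at most 31.4% with hemin and at least 32.3% with TGF-β1). A share also depends on the other genes of the family, and the CPM of Tfec itself overlapped between groups (log2 fold change -0.02, edgeR adjusted p = 0.820). Tfeb held 20.4% ± 0.537 with hemin and 18.1% ± 1.65 with TGF-β1, and Mitf 10.4% ± 0.868 with hemin and 9.33% ± 1.15 with TGF-β1. With the length of the longest coding transcript in place of that behind FPKM, Tfec drew level with Tfe3 in the TGF-β1 libraries. Tfe3 then held 39.8% ± 0.857 with hemin and 39.7% ± 1.73 with TGF-β1, and Tfec 36.4% ± 0.814 with hemin and 39.5% ± 1.51 with TGF-β1. On that length Tfeb held 18.7% ± 0.575 with hemin and 16.4% ± 1.51 with TGF-β1, and the share of Mitf was only 5.02% ± 0.450 with hemin and 4.44% ± 0.571 with TGF-β1. In the ATG8 family Gabarap made up 70.8% ± 0.795 of the sum with hemin and 73.0% ± 0.990 with TGF-β1. Gabarapl1 held 13.3% ± 0.644 with hemin and 11.2% ± 0.896 with TGF-β1, and Map1lc3b 5.14% ± 0.257 with hemin and 5.69% ± 0.395 with TGF-β1. As for Tfec, the shares of Gabarapl1 did not overlap between groups, by a narrow margin (at least 12.57% with hemin and at most 12.52% with TGF-β1). With the coding transcript length, the share of Map1lc3b was 10.5% ± 0.498 with hemin and 11.5% ± 0.769 with TGF-β1, while Gabarapl1 held 10.6% ± 0.509 with hemin and 8.82% ± 0.685 with TGF-β1. No test was run on these shares.

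**Figure D4:**
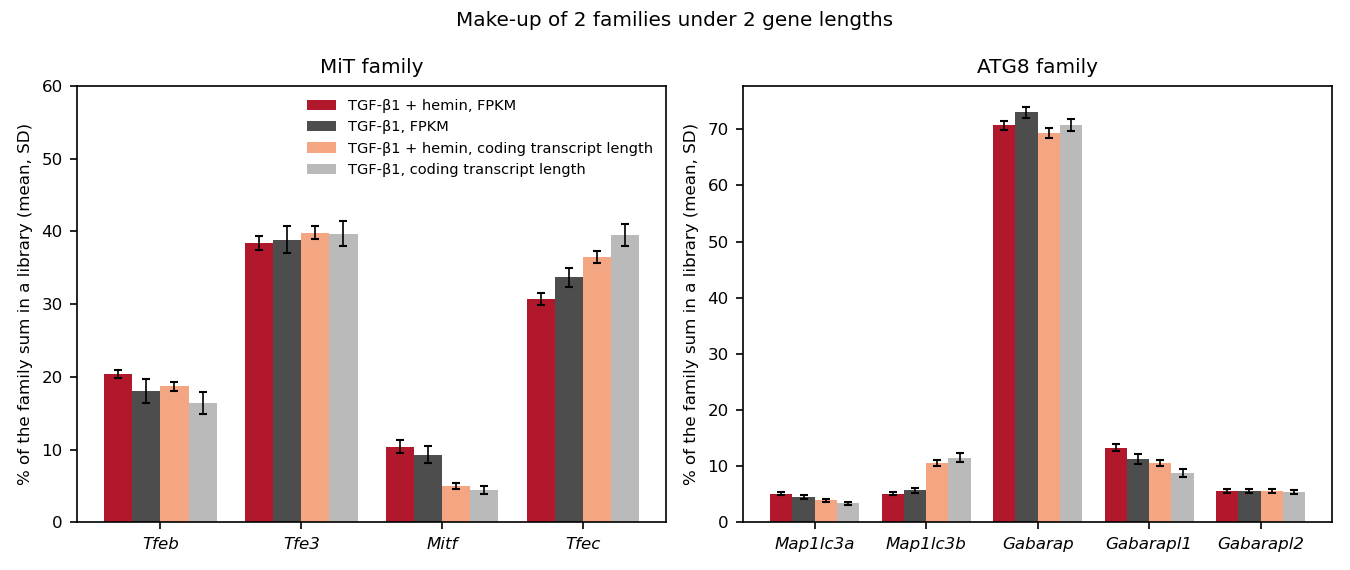
Share of each gene in the summed level of its family (y axis, % from 0, mean and SD over 5 hemin and 6 TGF-β1 libraries), from FPKM and from CPM per kilobase of the longest coding transcript. Gabarap holds about 70% of the ATG8 sum in each, while the share of Map1lc3b is about 5% in FPKM and about 11% per coding transcript.

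Genes that act with the 10 were taken from 11 lists by role, chosen with earlier results of these data known. Counted once each, 146 genes other than the members were tested, of which 29 rose and 8 fell. That is 25.3% called, against 14.2% of all tested genes (8.43% higher and 5.75% lower). The median of their log2 fold changes was 0.06. With library totals only the split was 18 higher and 24 lower, and with limma on FPKM 18 higher and 23 lower. Over all tested genes, library totals only called 734 of 15132 higher and 2487 lower. Limma on FPKM called 685 of 10499 higher and 2186 lower. Counts of the lists below from either fit stand beside these. Of 30 tested lysosomal CLEAR genes 16 rose and 1 fell, with a median of 0.19; with library totals only 10 were higher and 2 lower. Clcn7, the lysosomal chloride-proton exchanger, had 180 ± 7.51 CPM with hemin and 127 ± 8.30 CPM with TGF-β1 (log2 fold change 0.50, SE 0.05, edgeR adjusted p = 3.50e-06). Gla had 250 ± 15.3 CPM with hemin and 190 ± 11.6 CPM with TGF-β1 (0.39, SE 0.05, adjusted p = 7.96e-05). Ctsd was the single gene of the list that fell (-0.30, SE 0.06, adjusted p = 0.00277). Its promoter, shown above, holds CACGTG at 2 places, as do those of Gla and Mcoln1, which rose. Among the list's genes with a promoter entry, 5 of 12 that hold TCACGTG rose and 1 fell, while 7 of 9 without it rose. Over all tested genes with an entry, 10.0% of 709 with TCACGTG and 9.40% of 9622 without it rose.

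Upstream of the factors, 4 of 32 Rag and mTORC1 regulators rose and 1 fell, with a median of 0.06. That is 15.6% called, near the 14.2% of all tested genes. With library totals only 3 were higher and 5 lower, and all these counts include Flcn and Rragd. Lamtor3, a subunit of the Ragulator scaffold for Rag GTPases, had 63.9 ± 3.54 CPM with hemin and 51.3 ± 2.65 CPM with TGF-β1 (log2 fold change 0.32, SE 0.05, edgeR adjusted p = 0.000427). Slc38a9, the lysosomal arginine sensor, had 21.1 ± 2.2 CPM with hemin and 15.2 ± 0.892 CPM with TGF-β1 (0.47, SE 0.08, adjusted p = 0.000643). Rheb, the GTPase that switches on mTORC1, and Nprl2, a subunit of the GATOR1 inhibitor of Rag signalling, were the other 2 that rose. Sesn1, a sestrin that restrains mTORC1, fell to 47.4 ± 2.27 CPM with hemin, against 55.6 ± 3.34 CPM with TGF-β1 (-0.23, SE 0.05, adjusted p = 0.00713).

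Of 14 genes for calcium signals and other kinases that act on TFEB, 2 rose and 1 fell, with a median of 0.07 (1 and 3 with library totals only). That is 21.4% of the list called by edgeR, against 14.2% of all tested genes. Mcoln1, which releases lysosomal calcium, had 50.5 ± 2.47 CPM with hemin and 41.5 ± 2.65 CPM with TGF-β1 (log2 fold change 0.28, SE 0.06, edgeR adjusted p = 0.00219). The calcineurin subunit genes moved in opposite directions. Ppp3cb, a catalytic subunit, fell (-0.26, SE 0.05, adjusted p = 0.00249), and Ppp3r1, the regulatory subunit, passed narrowly (0.14, SE 0.04, adjusted p = 0.0496) and kept its call only without TGF-β1 replicate 2 or hemin replicate 5 among the 11 fits that left out 1 library.

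In the core machinery, the ULK1 kinase complex had 0 of 5 genes higher (0 also at an unadjusted p under 0.05 and by DESeq2) and 1 lower, Ulk2 (-0.20, SE 0.05, edgeR adjusted p = 0.0104), with 2 lower when scaled by library totals only. Over all tested genes edgeR with TMM factors called 8.43% higher and 5.75% lower, the shares beside which its own counts of these lists stand. Library totals only called 734 of 15132 genes higher and 2487 lower, and DESeq2 called 1462 of 14784 higher and 1212 lower. In the class III PI3-kinase complexes, which hold Becn1 and Uvrag, 0 of 11 were called by edgeR, with 1 higher and 1 lower at an unadjusted p under 0.05; DESeq2 called 1 lower, and library totals only 2. The gene DESeq2 called, Sh3glb1, a Beclin 1 partner and the most abundant non-member of the list, had a log2 fold change of -0.12 (SE 0.04, edgeR adjusted p = 0.10, DESeq2 adjusted p = 0.0252). Sh3glb1 was called lower in 7 of 23 alternatives, but in 0 of the 11 fits that left out 1 library. Among the 7 were edgeR at a mean FPKM of at least 5 (-0.14, adjusted p = 0.0148) and limma on log2(FPKM + 1) (-0.22, adjusted p = 0.000526). Of 11 genes for membrane supply and WIPI proteins, Wipi1 among them, 2 rose: Vmp1, a lipid scramblase of the endoplasmic reticulum (0.40, SE 0.06, edgeR adjusted p = 0.000132), and Atg9a, the scramblase on ATG9 vesicles (0.29, SE 0.07, adjusted p = 0.0113). The call of Vmp1 held in all 23 alternatives. That of Atg9a held in 17 of 23 and was lost with library totals only (0.17, adjusted p = 0.138), with the replicate block, without hemin replicates 5 and 6 together and in limma on FPKM with either pseudocount or no filter (adjusted p at most 0.293). With library totals only this list had 1 higher and 2 lower. The machinery that conjugates ATG8 proteins had 1 of 11 higher, the protease gene Atg4c (0.25, SE 0.08, edgeR adjusted p = 0.0475), a call kept only without TGF-β1 replicate 4 or 6 among the 11 fits that left out 1 library. The list had a median of 0.12, with 5 genes higher at an unadjusted p under 0.05 and 0 called with library totals only.

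Autophagy receptors, which tie cargo to ATG8 proteins, held the called gene with the largest change in the 11 lists by role. Sqstm1 (p62) had a log2 fold change of 1.06 (SE 0.05, edgeR adjusted p = 6.18e-10), against 0.39 for Gabarapl1, the ATG8 gene with the largest change. Of 19 receptors 4 rose and 3 fell, with a median of 0.04 (3 and 4 in limma on FPKM). The shares over all tested genes were 8.43% higher and 5.75% lower by edgeR with TMM factors. Limma on FPKM called 685 of 10499 genes higher and 2186 lower, and library totals only 734 of 15132 higher and 2487 lower. Tex264, a receptor for the endoplasmic reticulum, had 88.1 ± 4.78 CPM with hemin and 67.3 ± 2.90 CPM with TGF-β1 (0.39, SE 0.05, edgeR adjusted p = 2.67e-05). Ncoa4, the receptor for ferritin, and Tax1bp1 rose as well. Retreg1, another receptor for the endoplasmic reticulum, fell to 95.5 ± 4.33 CPM with hemin, against 116 ± 5.57 CPM with TGF-β1 (-0.28, SE 0.05, adjusted p = 0.000520). Fundc1, a receptor on mitochondria, and Wdfy3, a scaffold for protein aggregates, also fell. Of 15 genes for fusion with lysosomes 0 rose (0 at an unadjusted p under 0.05 and 0 by DESeq2) and 1 fell, the SNARE gene Snap29 (-0.22, SE 0.05, edgeR adjusted p = 0.00838), with 6 lower when scaled by library totals only.

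**Figure D5:**
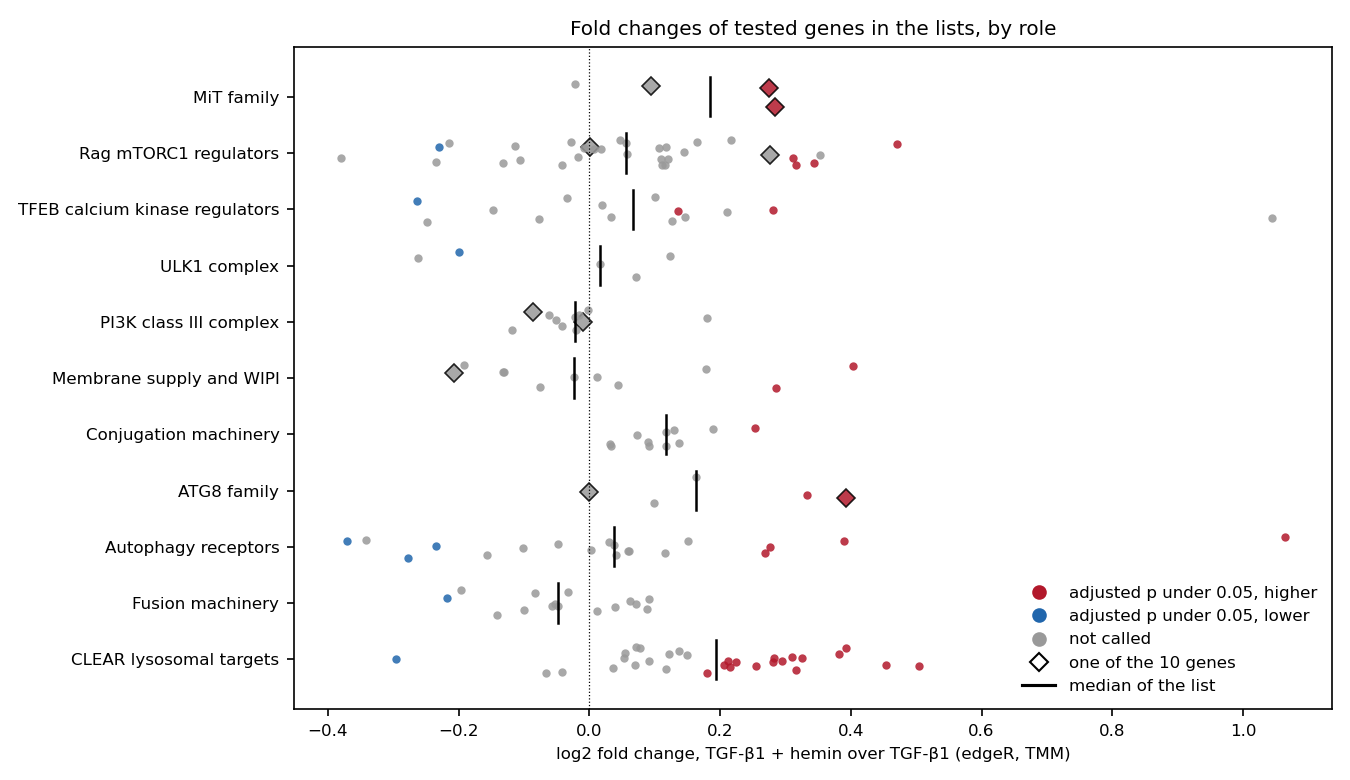
Log2 fold change of every tested gene in the 11 lists (x axis, TGF-β1 + hemin over TGF-β1, edgeR), with members as diamonds, medians as vertical bars, and genes that rose or fell in red or blue. The lysosomal CLEAR genes have the most red points, 16 of 30, and Sqstm1 lies farthest to the right among the called genes, at 1.06. Of all tested genes, 8.43% rose and 5.75% fell.

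The genes whose levels over the 11 libraries were most like those of the 3 factors were found by Pearson's r on log2 CPM among the 10396 tested genes that averaged 1 FPKM or more. For Tfeb these were Flot2, Cyba and Calhm2, each with r = 0.96. For Tfe3 they were Polr3c (r = 0.93), Nudt8 (0.87) and Gpr183 (0.86), and for Mitf Impact (0.94), Cd300lb (0.91) and Cytip (0.91). After the group means were removed, r was between 0.78 and 0.91 for these 9 genes, which had been picked for their high r in the same libraries. The points share their libraries and scaling, and the 3 sets hold no gene in common.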

How the data were processed

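RNA of 11 libraries of mouse bone marrow-derived macrophages was measured by polyadenylated RNA sequencing. The deposited table holds raw whole-number counts per gene, with no normalization, and FPKM values calculated by the authors. The submitters' processing notes name HISAT2 2.2.1 and StringTie 2.1.6, besides cutadapt 1.9, FastQC 0.11.9 and DESeq2, with build GRCm39 and no role for any of them. For the counting tool, annotation release and strand setting, the entry is: not given in the sources used here. Reads from overlapping opposite-strand genes may therefore be misassigned.

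Libraries were grouped by their titles, read with the design text. After filterByExpr (count 10, total 15) 15132 genes were tested for the group term alone with the quasi-likelihood method of edgeR 4.0.16 (R 4.3.3) on TMM-scaled libraries. Its p-values are 2-sided and were adjusted over all tested genes by Benjamini-Hochberg, threshold 0.05. Exact permutation tests used Python 3.11.15 with scipy 1.17.1. Alternatives were DESeq2 1.42.0 and its size factors, library totals only, robust dispersion, other filters, the replicate number as a block, limma 3.58.1 on log2(FPKM + 1) or log2(FPKM + 0.1) for genes with an FPKM of at least 1 in 5 libraries, leaving out libraries, and, added after seeing the data, limma with median-of-ratios scaling and a second choice of gene length. The procedure was tested on simulated counts.

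The 10 genes, the lists and the tests were chosen with earlier results of these data known. Named genes are the 10 members, in each role list the non-members with the lowest adjusted p (at most 2 called in each direction, or the gene of highest FPKM where none was called), in each marker list the gene of highest FPKM, Hmox1, Slc40a1 and the 3 genes most like each factor. Others were named after their values were seen: the remaining called genes of the lists, markers called or near 0, and the families' other genes. Promoters are RefSeq sequences of build GRCm38.p6, matched by symbol. Gene coordinates are those of the table, build GRCm39. Exon lengths are from GENCODE M21 by gene ID.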

Additional observations from a re-analysis of the deposited data

Results flagged for a closer look

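In 3 of 32 sets of values from 1 group, a single library lay far from the others by Dixon's test, which chance does in about 1 in 20 groups. Rragd had 9.30 CPM in TGF-β1 replicate 3, while the other 5 TGF-β1 libraries lay between 6.30 and 6.83 CPM. The same library set the log2 ratio of Rragd to Flcn counts apart, at -1.80 against -2.40 to -2.22 in the others. In TGF-β1 replicate 4 the log2 ratio of Uvrag to Becn1 counts was -0.31, while the others lay between -0.63 and -0.54. That library had the lowest Becn1 level of its group, at 72.8 CPM, and the highest Uvrag level, at 58.8 CPM.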

How the results depend on the processing

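Same-numbered libraries correlated between -0.09 and 0.11 in their deviations from the group means, and 2 of 5 matched their own number best. The labels do not say whether the numbers pair the libraries. This check cannot tell whether same-numbered libraries shared a mouse or culture. With the replicate block 1543 genes were called, 2 of the members (Gabarapl1 and Tfeb) and 24 genes of the lists.

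Library totals only called 3221 genes, 734 higher and 2487 lower. Limma on FPKM called 685 higher and 2186 lower, with a pseudocount of 0.1 683 and 2197, and with no filter 659 and 1626. Without hemin replicates 5 and 6 together 565 genes were lower. Members called higher numbered 1 with library totals only and 1 in limma with no filter. Members called lower numbered 2 with library totals only, 2 in limma with either pseudocount and 1 with no filter, against 0 with TMM. Limma with no filter called 23 list genes. With the added median-of-ratios scaling, limma on log2(FPKM + 1) called 1140 genes higher and 880 lower. Of the members it called 3 higher and 0 lower, and of the list genes 28 higher and 9 lower. The cause was not tested.

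Genes near no change took either sign. Tfe3 was at -0.019 with library totals and -0.010 in limma with either pseudocount and without the filter. Flcn was at -0.0072 with DESeq2's size factors, -0.0066 with DESeq2, -0.014 with the added scaling, -0.11 with library totals, -0.025 among genes of mean FPKM of at least 5, and -0.10, -0.11 and -0.10 in limma. Map1lc3b was at -0.0081, -0.0067, -0.015, -0.12, -0.027, -0.10, -0.11 and -0.10 in the same order, and -0.031 without hemin replicates 5 and 6. Becn1 was at 0.0082 with the replicate block. Acp5 was at -0.013 with library totals and Polr3c at -0.056, and at -0.046, -0.049 and -0.046 in limma.

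Among genes of the lists, the calls of Slc38a9, Mcoln1 and Ctsd were lost in limma with no filter, that of Fundc1 with the replicate block, that of Ulk2 without hemin replicates 5 and 6 together, and those of Sesn1 and Snap29 in both of these, with adjusted p at most 0.0926.

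With 1 library left out, log2 fold changes ran between -0.044 and 0.042 for Flcn, -0.034 and 0.038 for Map1lc3b, -0.042 and 0.018 for Becn1, and -0.13 and 0.13 for Acta2. The log2 ratio differences ran between -0.098 and 0.051 for Mitf to Tfeb, -0.22 and -0.13 for Tfe3 to Tfeb, and 0.37 and 0.42 for Gabarapl1 to Map1lc3b.

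At a median count of 512, Rragd has the widest interval of the members, between -0.513% and 47.5%.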
